A study of Homo sapiens with 24 samples.

Results

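LNCaP cells carrying a SIRT1 knockdown named 10 (3 libraries) were set against LNCaP cells carrying a scrambled control short hairpin RNA named NTC (3 libraries), all under the androgen dihydrotestosterone (DHT) combined with the antiandrogen enzalutamide. These 6 libraries, chosen by their sample titles, are 6 of the 24 RNA sequencing libraries in the series, and 14558 of the 23207 gene symbols in the files passed the filter on low counts and were tested. LNCaP is a hormone-sensitive prostate cancer line. Lentivirus had been applied to both at an MOI of 10, the number of infectious particles per cell, and puromycin was used at 1 µg/ml to select the transduced cells and at 0.5 µg/ml to keep them. They spent 48 h in medium with fetal bovine serum (FBS) and 24 h in charcoal-stripped serum, which removes steroid hormones, before 24 h with 1 nM DHT and 10 µM enzalutamide. The same NTC and knockdown 10 cells also received vehicle or 1 nM DHT alone after the same steps, with 3 libraries in each group, and these 12 libraries serve for comparison. The labels speak of stable knockdown clones but not of how many, and they do not say whether libraries of a group came from separate cultures. The p-values therefore measure the spread between these libraries, which may be technical, and the effect of the hairpin and a difference between 2 cell lines derived separately cannot be told apart.

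SIRT1 is a NAD-dependent protein deacetylase whose substrates include histones, p53 and FOXO factors. DHT induces genes such as KLK3, the gene of prostate-specific antigen, and promotes proliferation of LNCaP cells. Enzalutamide blocks the response to DHT, so the cells compared here met androgen and its antagonist together.

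Genes of mitosis had the lowest median fold change of the gene lists described here, and their promoters carry known elements. The cell cycle genes homology region (CHR) is bound by the MuvB complexes that repress or activate mitotic genes, the CCAAT box by NF-Y, and the E2F site by E2F factors that control genes of DNA synthesis. In the RefSeq table of promoters (GRCh38.p14, from 250 bases before to 50 bases after each gene's start, the first entry of each symbol), 46 of the 56 tested members of a mitosis and spindle list had an entry. A CHR (TTTGAA or TTCGAA, either strand) stood in 33 of the 44 matched members that fell, or 75%, against 16.6% of 27305 promoters. The CCAAT box (CCAAT, either strand) was likewise in 33 of these 44, against 35.7% of all promoters. As 44 of the 46 matched members fell, these shares describe the list and do not set apart the members that fell. Of 45 genes of replication origins and forks, 38 had an entry, and an E2F site (TTTGGCGC, TTTCGCGC, TTTCCCGC or TTTGCCGC, either strand) stood in 13 of the 31 matched members that fell, or 41.9%, against 3.33% of all promoters. The CHR was in 1 of these 31 and the CCAAT box in 19 (61.3%), so the box was not particular to the mitosis list. Among matched members that fell, it was also in 47.8% of homologous recombination and Fanconi genes and 47.6% of androgen-induced genes. The E2F site was in 21.7% and 4.76% of these. No motif contains another, and a match describes the sequence only. The 4 promoters shown were picked after the values were seen, because they hold the motifs in genes that fell with low adjusted p-values. In MAD2L1, a spindle checkpoint gene (chr4:120066799-120067098, minus strand), and NDC80, a kinetochore gene (chr18:2571307-2571606, plus strand), capitals mark CHR and CCAAT matches on either strand, and NDC80 holds CHR matches alone. In GINS1, a subunit of the replicative helicase (chr20:25407423-25407722, plus strand), and E2F1 (chr20:33686336-33686635, minus strand), capitals mark E2F sites. Each is written 5′ to 3′ on the strand of its gene.
MAD2L1: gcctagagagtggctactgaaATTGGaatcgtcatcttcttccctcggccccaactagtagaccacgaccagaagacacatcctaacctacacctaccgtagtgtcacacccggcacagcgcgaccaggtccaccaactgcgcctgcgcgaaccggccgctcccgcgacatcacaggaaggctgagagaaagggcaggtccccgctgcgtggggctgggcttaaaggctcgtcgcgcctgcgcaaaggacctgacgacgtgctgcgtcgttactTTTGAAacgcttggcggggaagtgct
NDC80: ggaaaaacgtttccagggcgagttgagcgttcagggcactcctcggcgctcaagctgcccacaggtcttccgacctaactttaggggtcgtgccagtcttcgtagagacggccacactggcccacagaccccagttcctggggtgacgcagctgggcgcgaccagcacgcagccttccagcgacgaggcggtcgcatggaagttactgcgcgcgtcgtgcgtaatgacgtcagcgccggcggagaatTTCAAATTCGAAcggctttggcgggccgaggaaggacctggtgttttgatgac
GINS1: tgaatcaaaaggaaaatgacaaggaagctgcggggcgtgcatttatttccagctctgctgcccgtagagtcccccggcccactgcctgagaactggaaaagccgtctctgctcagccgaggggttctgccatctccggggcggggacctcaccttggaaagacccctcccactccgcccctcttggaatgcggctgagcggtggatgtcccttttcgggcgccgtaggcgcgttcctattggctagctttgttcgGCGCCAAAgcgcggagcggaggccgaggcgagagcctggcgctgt
E2F1: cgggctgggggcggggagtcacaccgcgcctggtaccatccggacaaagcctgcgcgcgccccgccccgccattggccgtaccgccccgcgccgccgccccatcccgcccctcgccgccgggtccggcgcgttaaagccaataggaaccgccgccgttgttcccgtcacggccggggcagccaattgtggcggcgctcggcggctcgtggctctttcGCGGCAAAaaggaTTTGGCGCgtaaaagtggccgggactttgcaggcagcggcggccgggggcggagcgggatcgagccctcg

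SIRT1 was lower in each knockdown library. It stood at 56.9, 57.8 and 61.4 CPM in NTC and 17.6, 20.6 and 21.5 CPM in knockdown libraries, so that the groups did not overlap, and its log2 fold change was -1.56 (SE 0.0926, adjusted p = 1.8e-09, edgeR quasi-likelihood test). Levels in CPM are counts scaled to library size by the TMM method, given as mean ± SD over 3 libraries where not given one by one, and a gene was called where its Benjamini-Hochberg adjusted p over all tested genes was under 0.05. Each SE is the absolute log2 fold change divided by the square root of the F statistic of the quasi-likelihood test. It is not a standard error from the fit and can be too small for genes with few counts. The log2 fold changes in vehicle (-1.55) and under DHT (-1.65) were close to this.

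The libraries held 26.4 to 35.1 M counts each under DHT with enzalutamide, and the 14 luminal markers summed to 4163 to 4509 TPM, the deposited level per transcript length, in the NTC libraries and 4318 to 4686 TPM in the knockdown libraries. Markers of other cells were low: 9 of 12 genes of basal cells or other prostate lines, 9 of 12 fibroblast genes and 8 of 12 leukocyte and endothelial genes stayed under 1 TPM in all 6 libraries, and 4 of the fibroblast and 3 of the leukocyte and endothelial genes were at 0. Their sums were 41.8 to 62.2, 10.7 to 13.7 and 9.78 to 10.7 TPM in NTC against 37.6 to 57.4, 11.8 to 14.4 and 9.46 to 11.2 TPM in knockdown cells. Libraries numbered 1 stood apart from those numbered 2 and 3 on the third principal component of the 18 stripped-serum libraries (7.02% of the variance, after 60% and 20.1%), in NTC and knockdown cells alike.

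Across all genes, 5033 were called (34.6% of those tested), 2235 higher (15.4%) and 2798 lower (19.2%) in knockdown cells. Most changes were small. The median absolute log2 fold change was 0.38 among the called genes and 0.19 over all tested genes. With the sign kept, the median over all tested genes was 0.00. At least 2-fold changes were called for 766 genes (5.26%) and were mainly decreases: 604 genes (4.15%) fell and 162 (1.11%) rose at least 2-fold, 157 fell and 15 rose at least 4-fold, and 31 fell and 1 rose at least 16-fold. The replicates of the groups did not overlap for 7085 genes (48.7%). Counts of list members called higher or lower are set against the 15.4% and 19.2% over all genes. Counts with replicate numbers fitted as a block come from a fit that called more genes, to which these shares do not apply.

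**Figure D1:**
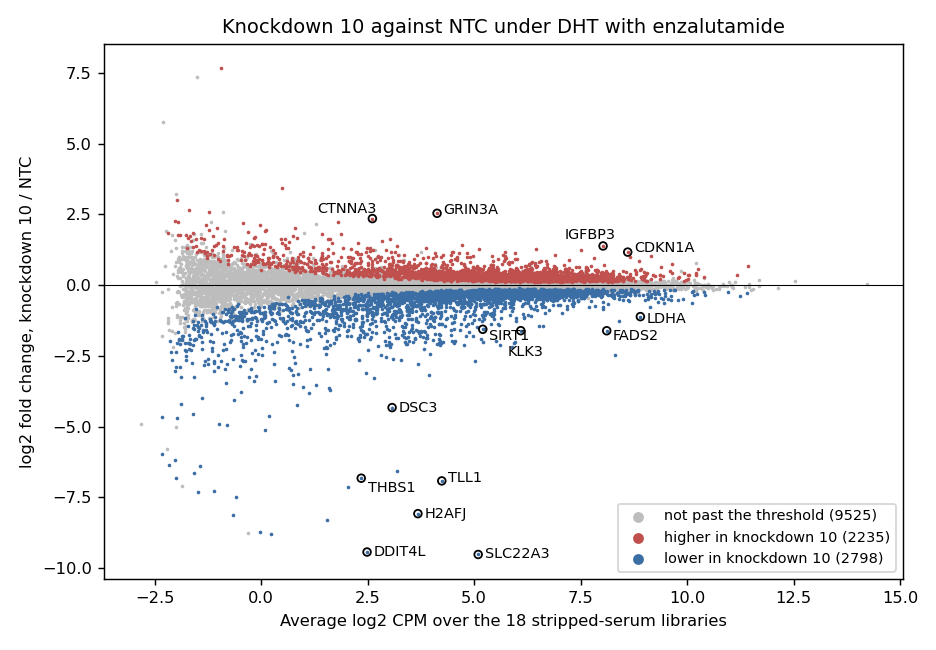
Log2 fold change of knockdown 10 over NTC under DHT with enzalutamide (vertical axis) against the average log2 CPM over the 18 stripped-serum libraries (horizontal axis), one point for each of 14558 genes, blue where lower, red where higher and grey where the adjusted p was not under 0.05. The points reach further down than up, with 31 called genes at least 16-fold lower and 1 at least 16-fold higher.

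The mitosis and spindle genes fell almost as a whole. Of 56 tested members, 53 fell and none rose, against a background of 19.2% of genes called lower, and their median log2 fold change was -1.60 where that of all tested genes was 0.00. At least 2-fold decreases made up 46 of the 53, where 4.15% of all genes fell that far. In the same 53 the 2 groups of libraries did not overlap, as was so for 48.7% of all genes. KIF20A, a kinesin of cytokinesis, stood at 8.03, 10.7 and 13.0 CPM in NTC and 1.65, 2.32 and 1.90 CPM in knockdown libraries, the largest change of the list (log2 fold change -2.42, SE 0.216, adjusted p = 2.5e-07). BIRC5, the gene of survivin in the chromosomal passenger complex, was at 13.2, 18.3 and 17.5 CPM in NTC and 4.94, 4.35 and 4.98 CPM in knockdown libraries, so the lowest NTC library, number 1, still held more than 2-fold the highest knockdown library. MAD2L1, whose promoter is shown above, was at 17.4, 20.6 and 18.6 CPM in NTC and 5.60, 6.38 and 6.94 CPM in knockdown libraries (log2 fold change -1.57, SE 0.115, adjusted p = 2.5e-08). PTTG1, the gene of the separase inhibitor securin, went from 13.2 ± 1.39 to 4.23 ± 0.355 CPM. Without all libraries numbered 1 the count of decreases was again 53. SPC25, CDC25B and BUB3 were the 3 members that did not pass. A bulk library cannot tell apart fewer dividing cells and less RNA in each.

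Genes of DNA synthesis fell too, by smaller amounts. Among the origin and fork genes 37 of 45 (82.2%) fell, where 19.2% of all genes did, and none rose, with a median log2 fold change of -0.56, and all 45 had a negative fitted change. GINS1 stood at 17.8, 21.1 and 19.96 CPM in NTC and 8.47, 8.96 and 9.53 CPM in knockdown libraries (log2 fold change -1.12, SE 0.119, adjusted p = 1.6e-06). FEN1, the nuclease that processes Okazaki fragments, went from 33.7 ± 2.77 to 15.95 ± 1.73 CPM, and RFC4, a subunit of the clamp loader, from 18.4 ± 1.32 to 10.7 ± 0.257 CPM. Of 18 genes in a nucleotide supply list, 15 (83.3%) fell and none rose. The list also holds UHRF1, which does not supply nucleotides but brings the maintenance DNA methyltransferase to replicated DNA. UHRF1 fell most (15.9 ± 1.45 to 3.89 ± 0.781 CPM, log2 fold change -2.02). RRM2, the regulated subunit of ribonucleotide reductase, came next (26.9 ± 4.88 to 6.75 ± 0.963 CPM, log2 fold change -1.99). TYMS, thymidylate synthase, and TK1, thymidine kinase, had log2 fold changes of -1.05 and -1.23. In homologous recombination and the Fanconi pathway 25 of 41 genes (61%) fell and 1 rose, the nuclease gene EXO1 going from 7.84 ± 1.89 to 1.82 ± 0.554 CPM and UBE2T, the ubiquitin-conjugating enzyme of the Fanconi pathway, from 31.1 ± 3.41 to 15.4 ± 0.850 CPM.

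Upstream of these genes, G1 cyclins, E2F factors and their partners included 18 of 26 (69.2%) that fell, against 19.2% of all genes, and 1 that rose, or 2 that rose when replicate numbers were fitted as a block. E2F1 stood at 13.8, 15.4 and 13.7 CPM in NTC and 5.67, 4.35 and 5.70 CPM in knockdown libraries, and its log2 fold change was -1.45 (SE 0.160, adjusted p = 2.5e-06). E2F2 fell from 3.81 ± 0.983 to 1.08 ± 0.337 CPM, and CDC25A, the phosphatase that activates CDK2, from 13.6 ± 1.07 to 6.43 ± 0.163 CPM. RBL2, the pocket protein p130 of quiescent cells, was the member that rose (233 ± 29.5 to 313 ± 41.1 CPM, log2 fold change 0.42). The cyclin-dependent kinase inhibitor CDKN1A, or p21, was at 248, 283 and 249 CPM in NTC and 492, 652 and 608 CPM in knockdown libraries (log2 fold change 1.17, SE 0.144, adjusted p = 8.0e-06). All 3 knockdown libraries lay above all NTC libraries. Of the 8 CDK inhibitor genes tested it was the only one called higher, or 1 of 2 with the replicate block. CDKN3, CDKN2A and CDKN2C fell, with log2 fold changes of -1.11, -0.65 and -0.62.

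Genes that p53 is known to induce moved less uniformly, with 10 of 30 (33.3%) called higher and 2 (6.67%) lower (4 lower with the replicate block). Of all genes 15.4% were higher and 19.2% lower. The median log2 fold change of the list was 0.06. CDKN1A was the most changed. GDF15, a secreted stress cytokine that other stress pathways also induce, went from 122 ± 12.03 to 223 ± 49.0 CPM (adjusted p = 2.7e-04, log2 fold change 0.88), and SESN2, a sestrin, from 41.5 ± 5.36 to 57.4 ± 1.94 CPM. PLK2 fell (log2 fold change -0.92, adjusted p = 4.7e-05). In the apoptosis list 10 of 25 members (40%) rose and 3 (12%) fell, against 15.4% and 19.2% of all genes. The rises numbered 5 without NTC library 2 or knockdown library 3 and 6 without NTC library 3. BCL2, which blocks mitochondrial apoptosis, fell from 4.21 ± 0.245 to 1.92 ± 0.129 CPM, and BID, a proapoptotic BH3 protein, from 19.1 ± 0.410 to 12.5 ± 0.287 CPM. CASP10, an initiator caspase, rose from 3.20 ± 0.472 to 7.26 ± 0.715 CPM.

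**Figure D2:**
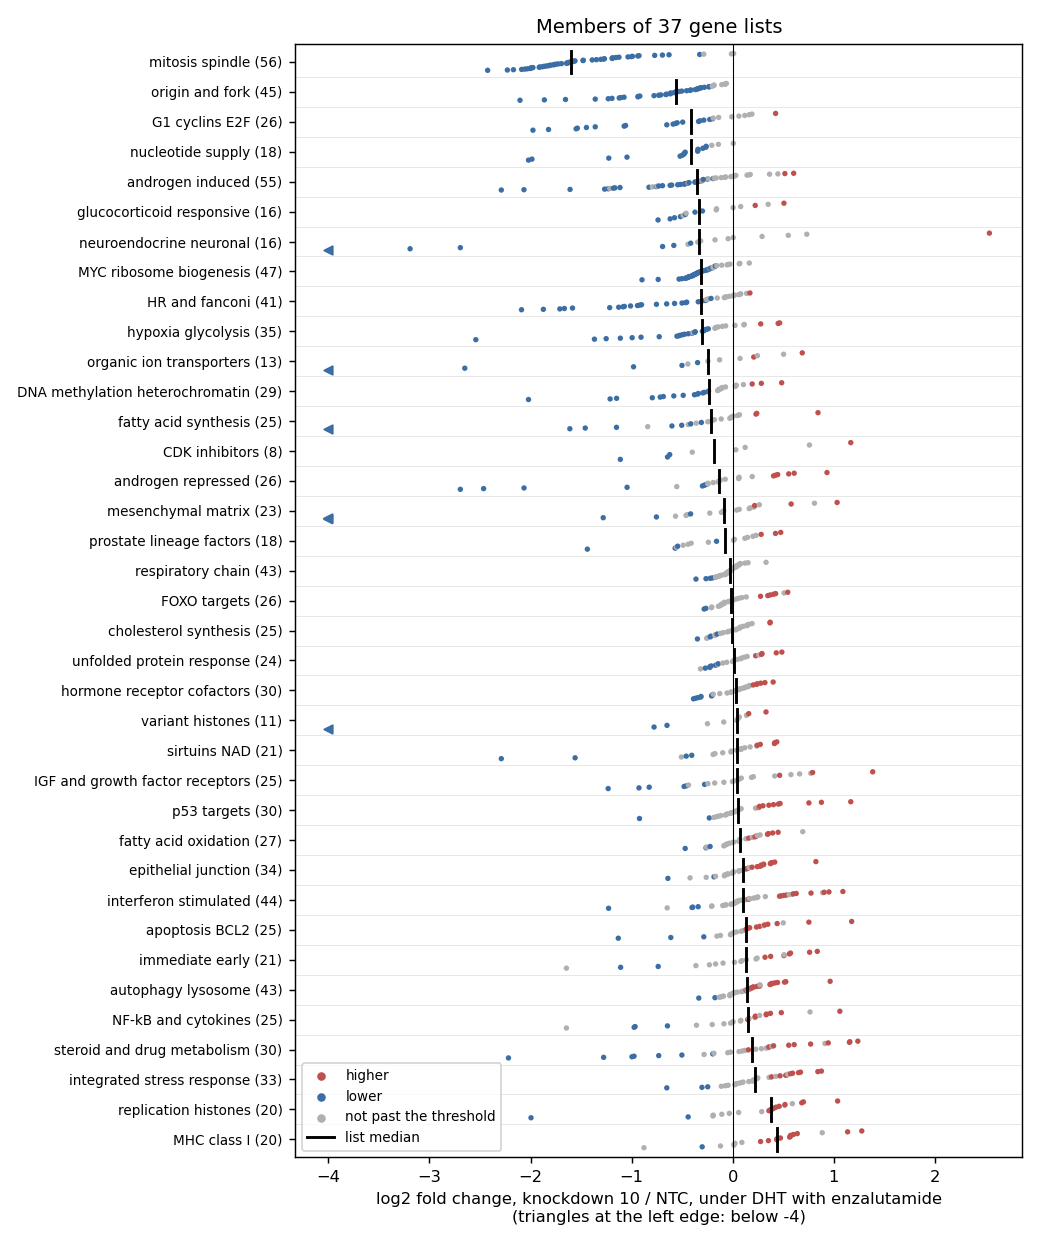
Log2 fold changes of knockdown 10 over NTC under DHT with enzalutamide for the tested members of 37 gene lists, ordered by the list median (black bar), with the number of tested members in parentheses. Red points were called higher, blue points lower and grey points neither, and triangles at the left edge stand for values below -4. The mitosis and spindle list lies farthest to the left with a median of -1.60, and the MHC class I list farthest to the right with 0.44.

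Androgen-induced genes were mostly lower with knockdown 10 under this blockade as well. Of 55 tested members 29 (52.7%) fell and 2 (3.64%) rose, against 19.2% and 15.4% of all genes, with a median log2 fold change of -0.35. KLK3 stood at 30.7, 41.6 and 43.8 CPM in NTC and 14.6, 10.95 and 12.6 CPM in knockdown libraries, so that the groups did not overlap (log2 fold change -1.61, SE 0.151, adjusted p = 4.6e-07). For reference, KLK3 was at 25.01 ± 2.11 CPM in vehicle and 235 ± 24.3 CPM under DHT in NTC cells, and at 5.91 ± 0.931 and 93.1 ± 15.95 CPM in knockdown cells. The level under DHT with enzalutamide was thus nearer to that of vehicle than to that of DHT in both kinds of cell. KLK2, a related kallikrein, was at 10.1, 11.98 and 11.6 CPM in NTC and 5.71, 3.83 and 5.34 CPM in knockdown libraries (log2 fold change -1.18, adjusted p = 3.6e-04). TMPRSS2, the serine protease gene fused to ETS genes in many prostate cancers, was at 55.1, 54.6 and 55.3 CPM in NTC and 40.01, 39.2 and 38.9 CPM in knockdown libraries (log2 fold change -0.48, adjusted p = 0.00663). The spread within each group was small beside this gap. FKBP5, a chaperone partner of steroid receptors, went from 52.0 ± 1.56 to 33.8 ± 0.752 CPM (log2 fold change -0.62), KCNN2, a calcium-activated potassium channel, from 34.1 ± 1.94 to 15.7 ± 0.852 CPM, and IQGAP2, a scaffold protein, from 13.3 ± 1.38 to 7.86 ± 0.243 CPM. RHOU, a small GTPase, moved the other way, from 58.9 ± 1.68 to 84.2 ± 0.766 CPM.

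Genes listed as repressed by androgen showed no common direction with the knockdown. Of 26 tested members 6 (23.1%) rose and 7 (26.9%) fell, near the shares over all genes. The list held only in part in these cells: by the means of NTC libraries, 19 of the 26 were lower and 7 higher under DHT than in vehicle, and of the induced list 50 of 55 were higher and 5 lower. SYT4, a synaptotagmin of vesicle release, stood at 67.9, 48.0 and 45.9 CPM in NTC and 7.66, 8.08 and 9.20 CPM in knockdown libraries; its NTC means in vehicle (56.4 ± 14.9 CPM) and under DHT (55.0 ± 14.9 CPM) were alike. PEG3, an imprinted zinc finger gene, went from 481 ± 31.8 to 87.3 ± 29.6 CPM (log2 fold change -2.46), though DHT did not lower it in NTC cells (501 ± 15.1 CPM in vehicle, 616 ± 21.0 under DHT). OPRK1, the kappa opioid receptor, went from 32.0 ± 4.71 to 7.65 ± 0.499 CPM, and DDC, the decarboxylase of dopamine synthesis, from 118 ± 7.004 to 57.0 ± 5.53 CPM. TOX3 and UGT2B11 rose, by log2 fold changes of 0.93 and 0.61; reads of UGT2B11 may be shared with its near-identical relatives, which makes its value uncertain, and its NTC mean was 99.2 ± 13.2 CPM in vehicle and 115 ± 11.4 under DHT. Among 18 lineage transcription factors 4 (22.2%) fell and 3 (16.7%) rose (5 rose with the replicate block), near the shares over all genes. ETV1, the ETS factor that is rearranged in LNCaP, stood at 137, 114 and 121 CPM in NTC and 53.1, 41.0 and 43.2 CPM in knockdown libraries, with no overlap (log2 fold change -1.44, SE 0.122, adjusted p = 1.4e-07). Hormone receptor cofactors changed little: 8 of 30 (26.7%) fell and 6 (20%) rose, and the fitted changes ran from -0.39 to 0.40 on the log2 scale. HDAC2 and KDM1A, a deacetylase and a demethylase of histones, fell by 0.39 and 0.37, and DAXX, a histone chaperone, rose by 0.40. Of 16 glucocorticoid-responsive genes 7 (43.8%) fell and 2 (12.5%) rose, against 19.2% and 15.4% of all genes, and 4 fell without NTC library 1.

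**Figure D3:**
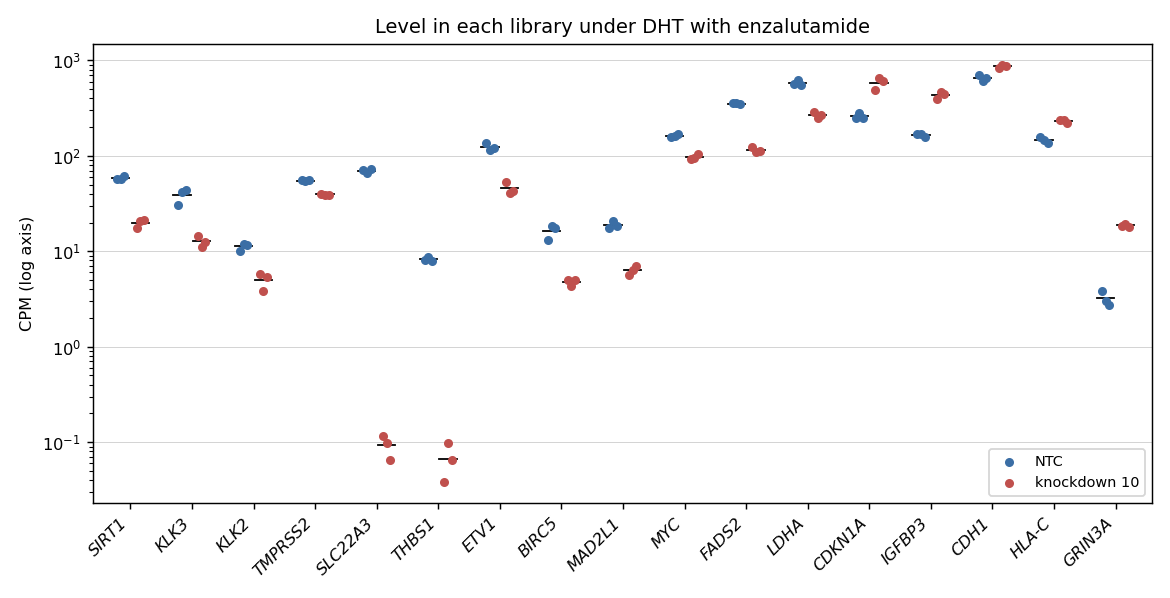
CPM on a log axis in each of the 3 NTC libraries (blue) and 3 knockdown 10 libraries (red) under DHT with enzalutamide for 17 genes, with a black bar at each group mean. The 2 groups do not overlap for any gene drawn, from SLC22A3 at 66.3 to 73.2 CPM against 0.0655 to 0.115 CPM to CDH1 at 603 to 699.8 against 840 to 897 CPM.

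The deepest decreases were near-complete losses of single transcripts. SLC22A3, an organic cation transporter, held 6927 counts over the 3 NTC libraries and 8 over the 3 knockdown libraries, or 70.8, 66.3 and 73.2 CPM in NTC and 0.115, 0.0981 and 0.0655 CPM in knockdown libraries (log2 fold change -9.51, adjusted p = 5.6e-14). THBS1, the matrix glycoprotein thrombospondin 1, held 807 against 6 counts, or 8.09, 8.80 and 7.83 CPM in NTC and 0.0383, 0.0981 and 0.0655 CPM in knockdown libraries. TLL1, a metalloprotease that processes procollagen, held 4003 against 29, and FAM65B 1318 against 12. In each of these the lowest NTC library lay over 10-fold above the highest knockdown library. DDIT4L, an inhibitor of mTOR signalling, held 1057 counts in NTC and 1 in knockdown cells, a depth-scaled ratio of 937 with an exact 95% interval of 168 to 37030. FCAMR, an Fc receptor, held 488 against 1, a ratio of 432 (77.2 to 17110). Both intervals cover counting error only. H2AFJ, a histone H2A variant, held 2220 against 7 counts, but its sequence is close to that of other H2A genes and reads may be shared. CNTN5, a neuronal contactin, held 838 against 5 counts.

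Further decreases among the 15 lowest left a measurable rest. DSC3, a desmosomal cadherin, stood at 17.1, 14.7 and 13.96 CPM in NTC and 0.766, 0.883 and 0.622 CPM in knockdown libraries (log2 fold change -4.33, SE 0.154, adjusted p = 2.1e-12). TMEM45B, a membrane protein gene, went from 9.70 ± 0.611 to 0.992 ± 0.132 CPM, and CBLN2, a secreted synaptic organizer, from 30.1 ± 6.42 to 3.24 ± 1.57 CPM. The list also holds genes of the cancer-testis kind, normally silent outside the germ line: PAGE1 went from 5.16 ± 0.670 to 0.388 ± 0.0403 CPM, DDX53 from 5.35 ± 0.647 to 0.426 ± 0.118 CPM and MAGEA4 from 4.03 ± 0.313 to 0.353 ± 0.159 CPM, and reads of PAGE1 and MAGEA4 may be shared with their relatives. PLOD2, a lysyl hydroxylase of collagen, stood at 3.19, 5.81 and 4.14 CPM in NTC and 0.307, 0.262 and 0.360 CPM in knockdown libraries. Its log2 fold change was -3.80 here, -0.80 in vehicle and -0.60 under DHT, and it is the one gene of the 15 lowest that was not called lower in both other treatments. The difference of its change did not pass the test against vehicle (adjusted p = 1) or against DHT (adjusted p = 0.122), and it passed against DHT with the replicate block (adjusted p = 0.0433). Among all tested genes, 18 held no counts in the knockdown libraries and more than 3 counts in the NTC libraries. S100A7, an epithelial calcium-binding protein, had 175 counts in NTC, and NAP1L5 114, both chosen after their values were seen. Against a floor of 3 counts over the group these were at least 51.7-fold and 33.7-fold lower.

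The largest increases were smaller. GRIN3A, a subunit of NMDA glutamate receptors, stood at 3.87, 2.99 and 2.76 CPM in NTC and 18.6, 19.5 and 17.98 CPM in knockdown libraries, the largest rise of the genes ranked (log2 fold change 2.54, SE 0.168, adjusted p = 5.9e-09). CTNNA3, an alpha catenin, was at 2.12, 2.17 and 2.82 CPM in NTC and 9.08, 11.97 and 15.3 CPM in knockdown libraries, and DMGDH, the mitochondrial dimethylglycine dehydrogenase, at 2.21, 1.03 and 1.21 CPM in NTC and 5.56, 8.21 and 7.56 CPM in knockdown libraries. All 3 knockdown libraries exceeded all NTC libraries for each of these. DLX3, a homeobox factor, REG4, a secreted lectin, and PLD1, a phospholipase D, rose by log2 fold changes of 1.79, 1.79 and 1.63. NRG3, a neuregulin, TMPRSS11E, a serine protease, KRT80, an epithelial keratin, PLXNA2, a semaphorin receptor, and TSPAN5, a tetraspanin, followed with 1.62, 1.56, 1.48, 1.47 and 1.41. PION, FLJ31662 and CLIC2 had 1.62, 1.37 and 1.34. IGFBP3, the main carrier of insulin-like growth factors in serum, was the only one of the 15 highest also among the 10 most abundant genes past 2-fold. It stood at 171, 169.5 and 159 CPM in NTC and 396, 468 and 439 CPM in knockdown libraries (log2 fold change 1.38, SE 0.0945, adjusted p = 9.9e-09). Within the list of growth factor genes and receptors, 3 of 25 (12%) rose (6 with the replicate block) and 6 (24%) fell, near the shares over all genes. IGF1 and its receptor IGF1R fell, from 2.41 ± 0.141 to 1.02 ± 0.0466 CPM and from 14.99 ± 1.61 to 8.49 ± 0.815 CPM.

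Glycolytic and hypoxia-responsive genes were mostly lower. Of 35 tested members 22 (62.9%) fell and 3 (8.57%) rose, with a median log2 fold change of -0.30. LDHB, a lactate dehydrogenase subunit, stood at 423, 443 and 437 CPM in NTC and 196, 170 and 181 CPM in knockdown libraries (log2 fold change -1.25, SE 0.0692, adjusted p = 7.0e-10). LDHA, the other subunit, was at 558, 626 and 555 CPM in NTC and 287, 250.1 and 267 CPM in knockdown libraries. Neither gene's groups overlapped. HK2, the hexokinase of many tumours, went from 37.4 ± 1.17 to 14.4 ± 1.71 CPM, CA12, a carbonic anhydrase, from 49.8 ± 1.96 to 25.01 ± 1.997 CPM, and PFKP, a phosphofructokinase, from 52.1 ± 5.44 to 31.4 ± 2.61 CPM. BNIP3L, a mitophagy receptor, was one of the 3 that rose (log2 fold change 0.45). Of 13 organic ion and monocarboxylate transporters 5 (38.5%) fell and 2 (15.4%) rose, against 19.2% and 15.4% of all genes. SLC16A1 and SLC16A3, which carry lactate, fell from 163 ± 6.71 to 128 ± 3.52 CPM and from 1.04 ± 0.202 to 0.166 ± 0.0903 CPM.

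In lipid metabolism the desaturases stood out among fatty acid synthesis genes. Of these 8 of 25 (32%) fell and 3 (12%) rose, against 19.2% and 15.4% of all genes. FADS2 stood at 354, 354 and 348 CPM in NTC and 123, 111 and 112 CPM in knockdown libraries; the lowest NTC library held more than 2-fold the highest knockdown library (log2 fold change -1.61, SE 0.103, adjusted p = 3.7e-09). FADS1, its partner in the synthesis of polyunsaturated fatty acids, went from 88.7 ± 3.55 to 39.98 ± 2.002 CPM, and ACSL4, which activates such fatty acids, from 8.55 ± 0.449 to 3.09 ± 0.749 CPM. ELOVL2, an elongase of the same pathway, had 72 counts in NTC and none in knockdown cells, at least 21.3-fold lower. ACSL5 rose, from 3.18 ± 0.347 to 5.72 ± 0.522 CPM. In fatty acid oxidation 7 of 27 genes (25.9%) were higher and 3 (11.1%) lower, against 15.4% and 19.2% of all genes. The median log2 fold change was 0.07. With the replicate block, which called more genes in all, 11 were higher. HADHB, of the trifunctional protein, and AMACR, a racemase often raised in prostate cancer, rose by log2 fold changes of 0.34 and 0.45. Cholesterol synthesis was called no more often than genes at large: 4 of 25 genes (16%) were lower (8 with the replicate block, 1 or 2 when any library other than NTC library 1 was left out) and 2 (8%) higher. FDPS, farnesyl diphosphate synthase, fell from 90.0 ± 1.38 to 70.7 ± 1.25 CPM. Respiratory chain subunits hardly moved: 4 of 43 (9.3%) fell and none rose, with a median log2 fold change of -0.03. With the replicate block 8 fell. Without NTC library 1 or knockdown library 3 the count was 2, and without knockdown library 2 it was 1.

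MYC, the transcription factor of growth and ribosome synthesis, stood at 156, 162 and 170.2 CPM in NTC and 92.4, 94.4 and 105 CPM in knockdown libraries (log2 fold change -0.74, SE 0.0893, adjusted p = 6.7e-06). The ribosome biogenesis genes listed with it were mostly lower too: 34 of 47 members (72.3%) were lower, where 19.2% of all genes were. None was higher (1 higher with the replicate block), and the median log2 fold change was -0.31. IPO4, an importin, went from 69.2 ± 2.65 to 37.1 ± 2.03 CPM, and RRP1B, a nucleolar protein, from 55.9 ± 0.0633 to 41.0 ± 0.760 CPM, again without overlap.

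In the integrated stress response, which reduces translation and induces ATF4 targets, 10 of 33 members (30.3%) rose and 3 (9.09%) fell, against 15.4% and 19.2% of all genes. This count depended on the libraries numbered 1: 17 rose with the replicate block, 21 without NTC library 1 and 24 without all libraries numbered 1. CEBPG, a partner of ATF4, stood at 97.9, 78.4 and 77.7 CPM in NTC and 127, 132 and 125 CPM in knockdown libraries (log2 fold change 0.59, adjusted p = 3.0e-05). NTC library 1 was the highest of the NTC libraries. ATF3 rose from 37.8 ± 2.01 to 56.1 ± 6.57 CPM and NUPR1, a small stress-induced chromatin protein, from 222 ± 17.1 to 322 ± 15.8 CPM. The unfolded protein response of the endoplasmic reticulum had 5 of 24 (20.8%) higher and 6 (25%) lower, near the 15.4% and 19.2% over all genes (3 lower without NTC library 3, knockdown library 2 or knockdown library 3). HERPUD1 rose and MANF fell, by log2 fold changes of 0.43 and -0.27. Autophagy and lysosome genes rose more often than they fell, 20 against 2 of 43, where 15.4% of all tested genes were called higher. NPC1, the lysosomal cholesterol transporter, stood at 110.2, 130.1 and 131 CPM in NTC and 202, 272 and 249.5 CPM in knockdown libraries (log2 fold change 0.96, SE 0.0985, adjusted p = 1.2e-06). LAMP1, a lysosomal membrane protein, ATG3, an enzyme of autophagosome formation, and ATP6V0D1, of the proton pump, rose by log2 fold changes of 0.52, 0.51 and 0.42.

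Antigen presentation through MHC class I showed the highest list median, 0.44, with 12 of 20 genes (60%) higher and 1 (5%) lower. HLA-C stood at 159, 146 and 137 CPM in NTC and 234, 235 and 219 CPM in knockdown libraries (log2 fold change 0.64, SE 0.0838, adjusted p = 1.6e-05), though reads may be shared among HLA genes. TAPBPL, a peptide editor of class I molecules, was at 18.7, 16.8 and 16.8 CPM in NTC and 33.8, 40.8 and 40.5 CPM in knockdown libraries. ERAP1, which trims peptides, and TAPBP, or tapasin, went from 66.9 ± 4.73 to 99.4 ± 5.48 CPM and from 140.4 ± 9.30 to 189.9 ± 0.729 CPM. In all 4 genes the knockdown libraries lay above the NTC libraries. PSME2, a proteasome activator subunit, went from 108 ± 9.33 to 87.5 ± 9.599 CPM and was called lower, a call that was lost without NTC library 1, knockdown library 2 or knockdown library 3. Interferon-stimulated genes had 12 of 44 (27.3%) higher and 4 (9.09%) lower, against 15.4% and 19.2% of all genes, with a median of 0.11. DDX60 rose from 15.98 ± 0.674 to 29.9 ± 2.10 CPM, OAS1, a sensor of double-stranded RNA, from 2.71 ± 0.261 to 5.23 ± 0.62 CPM and IRF1 from 18.5 ± 0.560 to 27.95 ± 2.26 CPM. Of 25 NF-κB and cytokine genes 9 (36%) rose and 3 (12%) fell, and 5 rose without NTC library 2 or knockdown library 3. IL1RN, the interleukin-1 receptor antagonist, went from 34.6 ± 2.95 to 72.1 ± 5.49 CPM and NFKB1 from 140 ± 2.19 to 176 ± 8.05 CPM.

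Listed epithelial junction genes leaned upward, with 14 of 34 (41.2%) higher and 2 (5.88%) lower (4 lower with the replicate block). Of all genes 15.4% were higher and 19.2% lower. The desmosomal cadherin DSC3, which lost most of its level as given above, is not a member of this list. CDH1, or E-cadherin, stood at 699.8, 603 and 656 CPM in NTC and 840.3, 897 and 875 CPM in knockdown libraries (log2 fold change 0.42, adjusted p = 2.8e-05). OCLN, a tight junction protein, and ST14, the protease matriptase, rose by 0.39 and 0.30 on the log2 scale, while the desmosomal DSC2 fell from 182 ± 15.1 to 117 ± 5.99 CPM. Of 23 mesenchymal and matrix genes 5 (21.7%) fell (8 with the replicate block, 3 without knockdown library 1 or 2) and 3 (13%) rose, near the shares over all genes. Those that moved were not of one kind: THBS1 and TLL1 were nearly lost, SNAI1, a repressor of CDH1, went from 1.501 ± 0.474 to 0.609 ± 0.164 CPM, and LAMA3, an epithelial laminin chain, stood at 358, 361 and 365 CPM in NTC and 681, 805 and 728 CPM in knockdown libraries (log2 fold change 1.03, adjusted p = 8.0e-08). In the neuroendocrine and neuronal list 6 of 16 (37.5%) fell and 1 (6.25%), GRIN3A, rose (2 with the replicate block).

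Replication-dependent histone genes, which supply S phase with histones, did not fall with the replication genes: of 20 tested 10 (50%) rose and 2 (10%) fell, against 15.4% and 19.2% of all genes. The rises numbered 5 without NTC library 2 or knockdown library 1. HIST1H2AC went from 28.5 ± 0.553 to 45.8 ± 1.47 CPM and HIST1H2BK from 136 ± 11.1 to 180.3 ± 2.63 CPM, but their messages largely lack poly(A) tails, the libraries came from an mRNA kit, and reads may be shared among copies. Of 11 variant and replacement histones 2 (18.2%) rose and 3 (27.3%) fell, near the shares over all genes. H2AFJ was among the latter, and H2AFX, which is phosphorylated at DNA breaks, went from 30.8 ± 4.74 to 19.6 ± 0.637 CPM. Among genes of DNA methylation and heterochromatin 15 of 29 (51.7%) fell and 3 (10.3%) rose. LMNB1 and LMNB2, the B-type lamins, went from 59.5 ± 3.36 to 26.8 ± 1.09 CPM and from 88.8 ± 2.82 to 51.1 ± 2.10 CPM, and EZH2, the histone methyltransferase of Polycomb, from 22.6 ± 0.670 to 15.1 ± 0.424 CPM. TET2, which oxidizes methylcytosine, rose from 85.4 ± 5.13 to 119.5 ± 2.71 CPM. In the sirtuin and NAD list, 5 of 21 (23.8%) rose (3 without NTC library 3) and 4 (19%) fell, SIRT1 among them, shares near those over all genes. SIRT2 and SIRT5 rose by log2 fold changes of 0.42 and 0.41, and PARP1, a large consumer of NAD, fell from 310.3 ± 18.3 to 226 ± 8.26 CPM. Of 26 FOXO target genes and FOXO factors 6 (23.1%) rose and 2 (7.69%) fell, against 15.4% and 19.2% of all genes, with a median of -0.01. Among immediate early genes 7 of 21 (33.3%) rose and 2 fell, KLF4 from 5.45 ± 0.403 to 9.73 ± 0.138 CPM and JUNB from 54.9 ± 5.6 to 81.1 ± 3.26 CPM among the rises. Enzymes that conjugate steroids and drugs had 10 of 30 (33.3%) higher, against 15.4% of all genes, and 7 (23.3%) lower, near the 19.2% of all genes. SULT1A1, a sulfotransferase, stood at 36.2, 36.3 and 32.2 CPM in NTC and 82.9, 76.5 and 73.5 CPM in knockdown libraries, and UGT2B10, a glucuronosyltransferase, was at 101, 108 and 94.9 CPM in NTC and 293, 203 and 221 CPM in knockdown libraries; both belong to families of similar genes that may share reads.

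The change of knockdown 10 cells against NTC cells under DHT with enzalutamide resembled the one in vehicle. In vehicle 5038 genes were called (34.6%), and 4095 genes were called in the same direction in both, 81.4% of those called under DHT with enzalutamide and 81.3% of those called in vehicle. Only 1 gene was called in opposite directions. The 2 comparisons share no library, but they share the 2 cell lines. The difference of the 2 changes was called for no gene (0% of 14558), with 192 genes at an unadjusted p under 0.05, and DESeq2, limma and the replicate block (352 genes at an unadjusted p under 0.05) also called none. It was called for 1 gene without knockdown vehicle library 2, and for 1 without all libraries numbered 1. Among 12061 genes averaging 1 log2 CPM or more, the median absolute difference was 0.05 on the log2 scale beside a median SE of 0.11, and 99.9% of the genes differed by less than 2-fold. The mitosis and spindle list had 53 of 56 lower in vehicle too, where 19.1% of genes were called lower, with a median of -1.59, and the androgen-induced list 28 of 55 with -0.37. The MHC class I list had 11 of 20 higher, where 15.5% of genes were called higher, with a median of 0.40. All 15 of the highest and 14 of the 15 lowest named genes were called in the same direction in vehicle, and the same held under DHT.

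Under DHT alone more genes were called, 6266 (43%). The direction was shared for 3918, which is 77.8% of the genes called under DHT with enzalutamide and 62.5% of those called under DHT, and opposite for 16. All 3 treatments had 3502 genes in common, called with the same direction. Another 510 genes were called under DHT with enzalutamide alone. As the difference against vehicle was called for no gene at all, none of these can be called particular to this treatment. The difference against DHT was called for 51 genes (0.35%), 39 with a higher (0.268%) and 12 with a lower (0.0824%) value under DHT with enzalutamide. With the replicate block 573 genes were called, 334 higher and 239 lower, and DESeq2 called 256. Leaving out 1 library gave 16 to 176 genes. The count was 104 without knockdown DHT library 1, 176 without knockdown DHT library 2, 29 to 33 without NTC DHT library 2, knockdown DHT library 3, NTC library 3 or knockdown library 1 of this treatment, and 16 to 22 without any of the others.

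Most of the 39 were genes whose decrease in knockdown cells was larger under DHT. Under DHT 38 were called lower. Under DHT with enzalutamide 16 of the 39 were called lower, 18 were not called and 5 were called higher. PRIM1, the catalytic primase subunit, had a log2 fold change of -0.34 here and -1.10 under DHT (difference 0.77, SE 0.110, adjusted p = 0.00527). Its mean level fell from 31.3 ± 2.49 to 14.6 ± 0.896 CPM under DHT, and from 11.6 ± 0.718 to 9.16 ± 0.269 CPM with enzalutamide added. CCNE2, cyclin E2, which drives entry into S phase, went from 54.2 ± 3.56 to 37.01 ± 6.74 CPM under DHT and from 25.6 ± 3.004 to 29.2 ± 0.470 CPM here (difference 0.74, adjusted p = 0.033). In 6 lists of replication, nucleotide supply, G1 control, mitosis, recombination and DNA methylation, which hold 1.47% of the genes tested, 13 of the 39 and none of the 12 were members; a set of 12 genes is too small to read its 0. With the replicate block 50 of the 334 and 0 of the 239 were members. The origin and fork list as a whole had 44 of 45 genes lower under DHT, where 23.5% of genes were called lower, with a median of -1.04 against -0.56 here. For the mitosis and spindle list the medians were nearly alike, -1.58 under DHT with 56 of 56 lower and -1.60 here. The androgen-induced list had 26 of 55 lower under DHT with a median of -0.26, and the MHC class I list 11 of 20 higher, where 19.5% of genes were called higher, with 0.31.

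**Figure D4:**
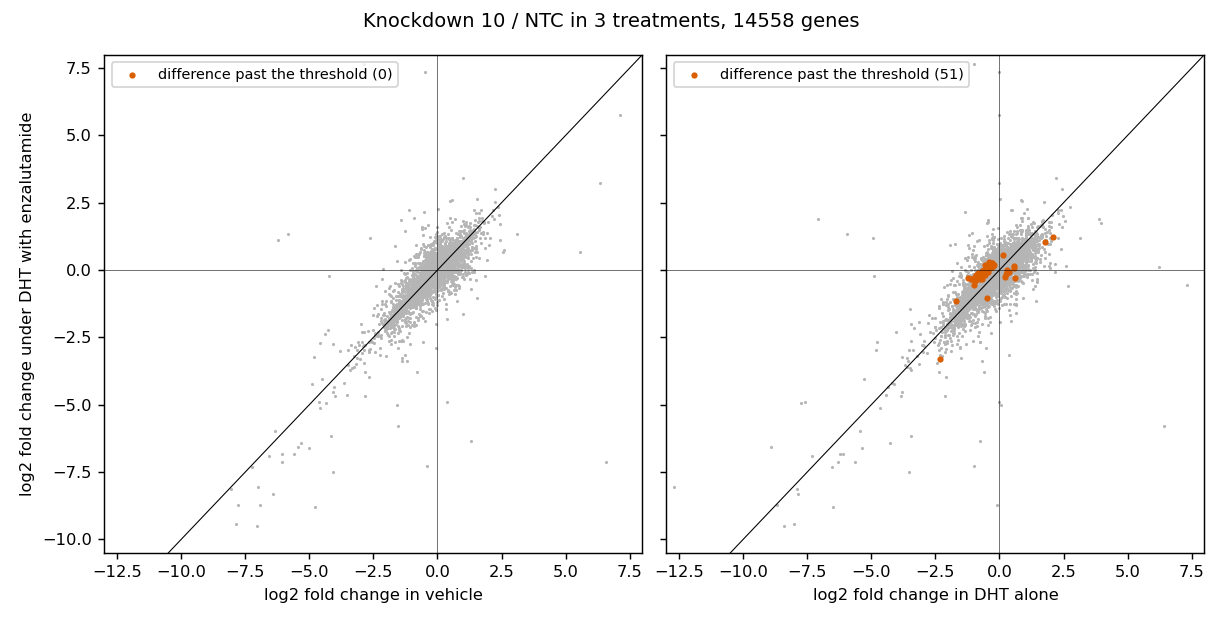
Log2 fold change of knockdown 10 over NTC under DHT with enzalutamide (vertical axis) against that in vehicle (left) and under DHT alone (right), one grey point for each of 14558 genes, with orange points where the difference between the 2 changes had an adjusted p under 0.05 and a line where both are equal. The left panel holds 0 orange points and the right panel 51, of which 50 had changed by less than 4-fold under DHT with enzalutamide.

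KLK4, an androgen-induced kallikrein, was among the 12. It was higher in knockdown cells under DHT (103 ± 8.33 CPM in NTC, 157 ± 30.6 CPM in knockdown cells), while here it went from 36.0 ± 1.45 to 29.4 ± 0.497 CPM and in vehicle from 26.0 ± 1.72 to 16.7 ± 0.965 CPM. The difference against DHT was -0.90 (SE 0.144, adjusted p = 0.0102), and it stayed past the threshold whichever library was left out. The log2 fold change here, -0.29 (adjusted p = 0.0403), lost its call when any of the 6 libraries was left out. IL1RN rose in both, by 1.06 here and by 1.79 under DHT (difference -0.73, adjusted p = 0.00527). TMEM45B fell in both, and more here (-3.29 against -2.31, adjusted p = 0.0331), a call lost in 10 of the 12 fits that left out a library, those that kept it being without knockdown DHT library 2 or 3. For KLK3, KLK2, TMPRSS2 and FKBP5 the differences against DHT were -0.27, -0.33, 0.20 and 0.11 and did not pass the test (adjusted p from 0.644 to 0.872).

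**Figure D5:**
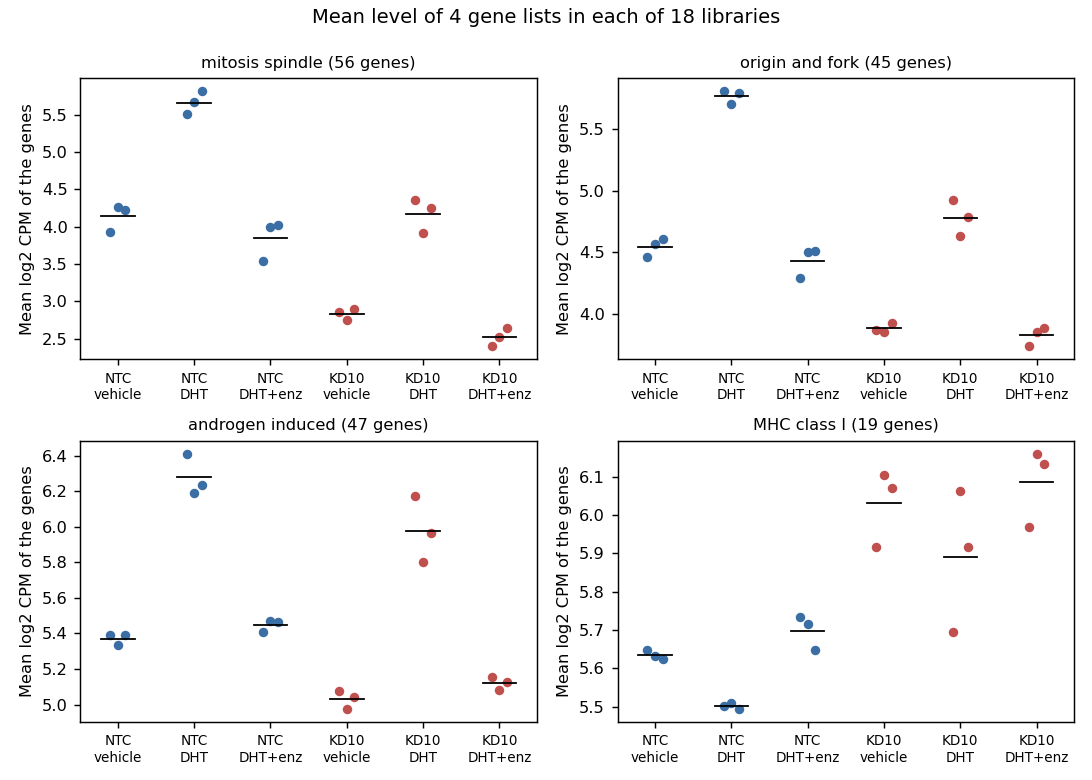
Mean log2 CPM over the members of 4 gene lists that averaged 1 log2 CPM or more, in each of the 18 stripped-serum libraries (NTC blue, knockdown 10 red, black bars for group means), with a vertical axis that differs between panels and does not start at 0. The mitosis and spindle genes lie at 3.54 to 4.03 in the NTC libraries and 2.40 to 2.65 in the knockdown libraries under DHT with enzalutamide, and the MHC class I genes at 5.65 to 5.73 and 5.97 to 6.16.

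The mean level of these lists places the treatment beside the others. In NTC cells the androgen-induced list stood at 5.41 to 5.47 log2 CPM under DHT with enzalutamide, where the vehicle libraries stood at 5.33 to 5.39 and the DHT libraries at 6.19 to 6.41. Knockdown cells were lower, at 5.08 to 5.15 with enzalutamide, 4.98 to 5.08 in vehicle and 5.80 to 6.17 under DHT. The mitosis and spindle list in knockdown cells under DHT, at 3.91 to 4.36, covered the range of NTC cells under DHT with enzalutamide, at 3.54 to 4.03, in part. Within NTC cells library 1 was the lowest of its group for this list in all 3 treatments, and its level of 3.54 with enzalutamide was still above the 2.65 of the highest knockdown library.

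A second set of libraries, NTC and shSIRT1 cells grown in FBS, was normalized separately, and whether its hairpin is that of knockdown 10 is not given in the labels, so its levels are given side by side only. SLC22A3 was at 59.2 ± 3.88 and 1.33 ± 0.592 CPM there, THBS1 at 22.2 ± 8.71 and 2.90 ± 0.131 CPM, and DSC3 at 18.8 ± 3.94 and 3.42 ± 1.33 CPM, lower in the knockdown as here. CDKN1A was at 202 ± 20.5 and 144 ± 30.4 CPM, lower in the FBS knockdown where it was higher here. MAD2L1 was at 91.4 ± 15.1 and 71.3 ± 17.8 CPM and NDC80 at 68.1 ± 12.5 and 75.7 ± 13.4 CPM, and for both genes the mean ± SD ranges overlap.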

How the data were processed

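RNA sequencing libraries had been made from 500 ng of RNA with a stranded mRNA kit, per the labels' protocols. The authors' deposited files hold, per sample and gene symbol, expected counts and TPM from RSEM (1.2.31), with CASAVA 1.8.2 and hg19 named in the submitters' processing notes. FPKM values that the authors also deposited were not used. The aligner is not given in the sources used here. Expected counts divide reads that fit several genes, so near-identical genes are uncertain.

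From these files, expected counts were rounded, scaled by TMM, filtered by filterByExpr and tested with the edgeR (4.0.16, R 4.3.3) quasi-likelihood test in one fit of the 18 stripped-serum libraries, two-sided, with Benjamini-Hochberg adjustment over all genes tested and a threshold of 0.05. Contrasts were knockdown 10 minus NTC under DHT with enzalutamide, and the difference of this change from those in vehicle and under DHT. Deposited TPM served for marker sums, for ranking abundant genes and for limma (3.58.1) on log2(TPM + 1). The scripts were first tested on simulated data.

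Named genes were SIRT1, KLK3, KLK2, TMPRSS2 and FKBP5, the 15 highest and 15 lowest fold changes among called genes without overlap of the groups that averaged 1 log2 CPM or more, the 10 most abundant called genes past 2-fold, up to 4 called genes of each of 37 lists by adjusted p and 2 moving the other way, and 6 genes at each end of each difference. NDC80, the members that did not pass, and genes with no knockdown counts were added after their values were seen. The members and lists were chosen with earlier results of these data known.

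Replicate numbers were treated as pairs in the replicate block. Between the groups compared, deviations from group means of same-numbered libraries correlated at 0.541, 0.315 and 0.276 (12061 genes). In the 18 same-numbered pairs of each difference the values were 0.12 or more. NTC library 3 and knockdown library 2 also correlated at 0.276, and NTC library 2 and knockdown library 3 at 0.0896. The pairing of numbers 2 and 3 is therefore less clear than that of number 1. Over all 45 same-numbered pairs of the 6 groups the lowest was 0.00956 and the median 0.338. Over the 90 differently numbered pairs the median was -0.236 and the highest 0.405. Other settings were DESeq2 (1.42.0), its size factors, no filter, a filter of 1 CPM in 3 libraries, the replicate block, and leaving out each library. A block fit of the 6 libraries alone and a fit without the libraries numbered 1 were chosen after seeing the data. The FBS libraries were not tested.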

Additional observations from a re-analysis of the deposited data

Results flagged for a closer look

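The knockdown change under DHT with enzalutamide differed from that under DHT, by the test of the difference itself (adjusted p under 0.05), for 15 of the genes named by rule. The knockdown value was lower with enzalutamide for KLK4 (difference -0.90 on the log2 scale, from 0.61 under DHT to -0.29), IL1RN (-0.73, from 1.79 to 1.06), TMEM45B (-0.98, from -2.31 to -3.29), LOC338651 (-0.84, from 2.07 to 1.23), MYNN (-0.56, from -0.49 to -1.05) and C17orf63 (-0.49, from 0.23 to -0.26). It was higher with enzalutamide for the others, which for most meant a smaller decrease. PRIM1 had a difference of 0.77, DSN1, a kinetochore gene, 0.71 (from -0.96 to -0.25), FANCD2, of the Fanconi pathway, 0.77 (from -1.11 to -0.34), CENPL, of the centromere, 0.73 (from -0.89 to -0.17) and CTSL2, a cathepsin, 0.93 (from -1.23 to -0.31). FADS1 had 0.54 (from -1.69 to -1.15) and FDPS 0.34 (from -0.69 to -0.35). CCNE2 had 0.74 and EED, a Polycomb subunit, 0.69, and both went from below 0 under DHT (-0.55 and -0.41) to above it (0.19 and 0.28).

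Leaving out each of the 12 libraries in turn cost KLK4, IL1RN, PRIM1 and DSN1 no call. CTSL2 lost it in 5 of the 12 fits, CCNE2 in 7, FANCD2 and C17orf63 in 8 each, and TMEM45B, LOC338651, MYNN and CENPL in 10 each. FADS1, FDPS and EED were not followed through these fits. The knockdown changes under DHT with enzalutamide of KLK4, DSN1, FANCD2 and C17orf63 were themselves close to the threshold.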

How the results depend on the processing

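The count of called genes stayed between 3895 and 6659 in every setting, against 5033 in the main analysis, with 5009 by DESeq2, 3951 by limma, 6423 with the replicate block and 3895 to 4463 with a library left out. Of 220 named knockdown changes 187 kept their call in all settings, 33 lost or gained it in at least 1, and none turned direction. SIRT1 ran from -1.62 to -1.47 with a library left out. Of 12 named differences 2 kept their call throughout. The difference against vehicle was called for 0 to 1 genes with a library left out and for 1 without the libraries numbered 1. The difference against DHT was called for 256 genes by DESeq2, 24 by limma, 573 with the replicate block and 16 to 176 with a library left out. Among list counts, the replicate block gave 11 rises in fatty acid oxidation, 17 in the integrated stress response, and 8 decreases each in cholesterol synthesis, mesenchymal genes and the respiratory chain. The block fit of the 6 libraries alone gave 13 decreases in fatty acid synthesis, 8 in cholesterol synthesis and 10 in the respiratory chain, with 11 rises in fatty acid oxidation and 20 in the integrated stress response. By limma 5 receptor cofactors, 1 cholesterol gene and 3 unfolded protein response genes fell. Without the libraries numbered 1 the integrated stress response had 24 rises and the respiratory chain 8 decreases. With a library left out, rises numbered 10 to 21 in the integrated stress response, 5 to 9 in replication histones, 5 to 9 in NF-κB genes, 3 to 5 in sirtuins and 5 to 7 in apoptosis genes. Decreases then numbered 1 to 4 in cholesterol synthesis, 3 to 5 in the unfolded protein response, 3 to 5 in mesenchymal genes, 1 to 6 in the respiratory chain and 4 to 7 in glucocorticoid genes. The cause of these shifts was not tested. Apart from counts given beside the results, the block moved no other list count by over 1.5 times. Of 232 named changes and differences, 231 kept their call with the block, and the change of CTSL2 (-0.31) gained one (adjusted p = 0.0431, edgeR). Only 3 libraries stand behind each group, and genes with a few counts, such as those nearly lost in knockdown cells, have fold changes limited by counting error.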
